A study of Mus musculus with 12 samples.

Results

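The genes described here are 7 named regulators and effectors of the epithelial to mesenchymal transition (EMT): the transcription factor genes Snai1, Snai2, Zeb1, Zeb2 and Twist1, the intermediate filament gene Vim and the extracellular matrix gene Fn1. They were chosen by gene symbol in the deposited expression table, without a rule on measured values but with earlier results of these data known. All 7, of 32245 rows in that table, were matched to Ensembl gene IDs in the count table. All 7 were among the 18693 genes that passed the filter on low counts. RNA sequencing was done on mouse embryonic stem (ES) cells of the line E14Tg2a.IV in 3 genotypes: wild type (WT), a double knockout of Smad2 and Smad3 (S2/3DKO) and a knockout of Smad4 (S4KO). Each genotype was sampled undifferentiated at day 0 and as embryoid bodies (EBs, floating aggregates of differentiating cells) at day 4 after removal of leukaemia inhibitory factor (LIF), the cytokine that keeps mouse ES cells undifferentiated. The 6 groups held 2 libraries each, 12 in all. The labels do not state whether replicates came from separate cultures or whether a knockout line was 1 clone, so p-values measure only the spread between these libraries.

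In EMT, cells held together in an epithelial sheet lose their junctions, change their cytoskeleton and become motile. The embryo uses it at gastrulation, when epiblast cells leave the epithelium through the primitive streak to form mesoderm and endoderm, and neural crest and heart valve cells use it later. SNAIL, ZEB and TWIST proteins bind E-box elements of DNA, and the SNAIL and ZEB factors repress epithelial genes such as the one for E-cadherin. SMAD2 and SMAD3 carry the signal of Nodal, activin and TGF-beta receptors to the nucleus, SMAD4 is the partner they share with the SMADs of the BMP branch, and TGF-beta signalling is a textbook inducer of EMT factors.

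Total counts lay between 31566376 for S4KO day 4 replicate 2 and 55806858, and the next lowest library had 46132635. The WT day 0 libraries stood apart: ribosomal protein genes took 15.1% and 11.1% of their counts against 5.08 to 7.91% in the other 10 libraries, so every comparison with them carries that difference. They also had a different trend with gene length. Long genes (the 20% with the most exon bases among 13523 genes) lay below short genes (the 20% with the fewest) in both WT day 0 libraries, with median differences of -1.48 and -1.16 on the log2 scale, each gene taken against its mean over the 12 libraries. In the other 10 libraries this difference lay between -0.38 and 0.64. Between the 20% of genes highest and the 20% lowest in GC content the difference was 0.85 and 0.89 in WT undifferentiated libraries, -1.20 in replicate 1 and 0.40 in replicate 2 of the WT EBs, and between -0.47 and 0.35 in the knockouts. Zeb1, Zeb2 and Fn1 are among the long genes and Snai1, Snai2 and Twist1 among the short ones. Snai1 and Twist1 are also among the genes of highest GC content, and Snai2 and Zeb2 among those of lowest. A correction that removes these trends from each library was therefore run beside the test. Values from it are given below for the 7 genes only, mainly where it changes a call. In S2/3DKO libraries Smad2 stood at 42.8 ± 7.01 CPM (read counts scaled to library size; SD, n = 2) at day 0 and 47.5 ± 1.10 at day 4, Smad3 at 16.4 ± 4.73 and 30.0 ± 1.79. In S4KO libraries Smad4 stood at 90.0 ± 14.7 CPM at day 0 and 133 ± 16.01 at day 4. These counts over whole genes do not test the knockout labels, because the sources used here do not give which exons were removed. The lines also differed in Hprt (group means of 170 and 208 CPM in S4KO, below 0.6 elsewhere). The Y-linked gene Eif2s3y had group means of at most 0.693 CPM in S2/3DKO and at least 37.9 elsewhere. In S2/3DKO its reads came from day 4 replicate 1 alone, with 84 counts (1.39 CPM). Xist had group means of 56.6 and 98.4 CPM in S2/3DKO and at most 8.57 elsewhere. The labels name 1 line for all 3 genotypes, yet comparisons between genotypes carry these differences. Their source was not tested. Markers set the cell types of the groups apart. The summed level of 9 pluripotency markers lay between 2531 and 4778 CPM at day 0 and between 782 and 2334 CPM at day 4. The summed level of 10 primitive streak and nascent mesoderm markers was 485 and 579 CPM in WT day 4 libraries, 8.10 and 10.2 in S2/3DKO and 16.1 and 27.6 in S4KO. Of 16 extraembryonic endoderm markers the sums were 1498 and 1925, 1377 and 1722, and 360 and 531 CPM in the same order. Of 8 trophectoderm markers they were 34.5 and 48.2 in WT, 676 and 702 in S2/3DKO and 80.9 and 109 CPM in S4KO. For 12 early neural and neural crest markers they were 227 and 277, 103 and 127, and 149 and 246 CPM in the same order. For 10 blood and endothelium markers they were 39.2 and 39.5, 93.2 and 120, and 62.3 and 102 CPM. At day 0 the trophectoderm sums were 253 CPM in both S2/3DKO libraries and 63.0 to 81.7 CPM in those of WT and S4KO. The extraembryonic endoderm sums at day 0 were 651 and 798 CPM in S2/3DKO and 250 to 279 CPM in WT and S4KO. Comparisons with S2/3DKO at day 0, where cells are called undifferentiated, thus carry these marker differences. Sums of 11 fibroblast markers stayed between 11.6 and 57.6 CPM in all 12 libraries, and no marker in any of these lists was at 0 counts throughout.

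The sequence before the transcription start is shown for the factors Snai1, Twist1 and Zeb2, of which Twist1 and Zeb2 were called between the knockouts at day 4 and Snai1 was called upward in WT differentiation. Each run gives the 250 bases before a RefSeq start in GRCm38.p6, 5′ to 3′ on the strand of the gene: Snai1 at chr2:167537945-167538194 on the plus strand, Twist1 at chr12:33957421-33957670 on the plus strand and the most upstream of 4 Zeb2 starts at chr2:45117443-45117692 on the minus strand. Capitals mark matches to CACCTG or CAGGTG, the E-box that SNAIL and ZEB factors bind, and to GTCTG or CAGAC, a pair of core letters of the SMAD element, searched on both strands.

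Snai1: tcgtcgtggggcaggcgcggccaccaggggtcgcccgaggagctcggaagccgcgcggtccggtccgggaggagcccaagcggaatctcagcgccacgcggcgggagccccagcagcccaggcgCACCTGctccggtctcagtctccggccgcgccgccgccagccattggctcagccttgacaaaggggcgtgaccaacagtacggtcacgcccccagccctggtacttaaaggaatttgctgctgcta

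Twist1: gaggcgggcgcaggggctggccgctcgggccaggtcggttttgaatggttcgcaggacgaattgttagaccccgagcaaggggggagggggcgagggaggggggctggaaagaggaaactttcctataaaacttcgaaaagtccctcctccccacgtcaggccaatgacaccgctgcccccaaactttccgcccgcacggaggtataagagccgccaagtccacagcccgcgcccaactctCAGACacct

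Zeb2: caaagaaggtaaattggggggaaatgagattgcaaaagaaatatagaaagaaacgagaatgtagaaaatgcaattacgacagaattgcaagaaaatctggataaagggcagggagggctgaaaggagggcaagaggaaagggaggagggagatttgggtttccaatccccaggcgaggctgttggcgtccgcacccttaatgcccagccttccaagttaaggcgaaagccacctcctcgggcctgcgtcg

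The Snai1 run holds 1 E-box, whose first base lies at position -126 from the start, and no SMAD core letters. The Twist1 run holds 1 SMAD core match at position -9 and no E-box. Neither motif occurs in the Zeb2 run, in the 250 bases before the other 3 Zeb2 starts or in those before the Vim start. Of 32851 windows of the same length before mouse RefSeq starts, 17.2% held the E-box and 42.2% the SMAD core letters. The windows for 4 of the 7 genes (Snai1, Zeb2, Twist1 and Vim) were matched, and a match is a description of letters, not of binding.

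The levels of the 7 genes differed widely on the scale that allows comparison between genes, the authors' FPKM (fragments scaled to transcript length and library size). Fn1 ranged from 70.1 to 234 FPKM over the 12 libraries and Vim from 13.7 to 78.3. The factor genes stayed at or below 7.79 FPKM: Snai1 reached that value, Zeb1 4.21, Zeb2 3.48, Twist1 2.55 and Snai2 1.06. The genes for the structural products were thus abundant in every library, while each factor gene stayed below the lowest value of both even where it was highest. Below, levels are in CPM scaled between libraries, which suit comparisons of 1 gene across libraries, and differences are log2 fold changes ± standard error.

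**Figure D1:**
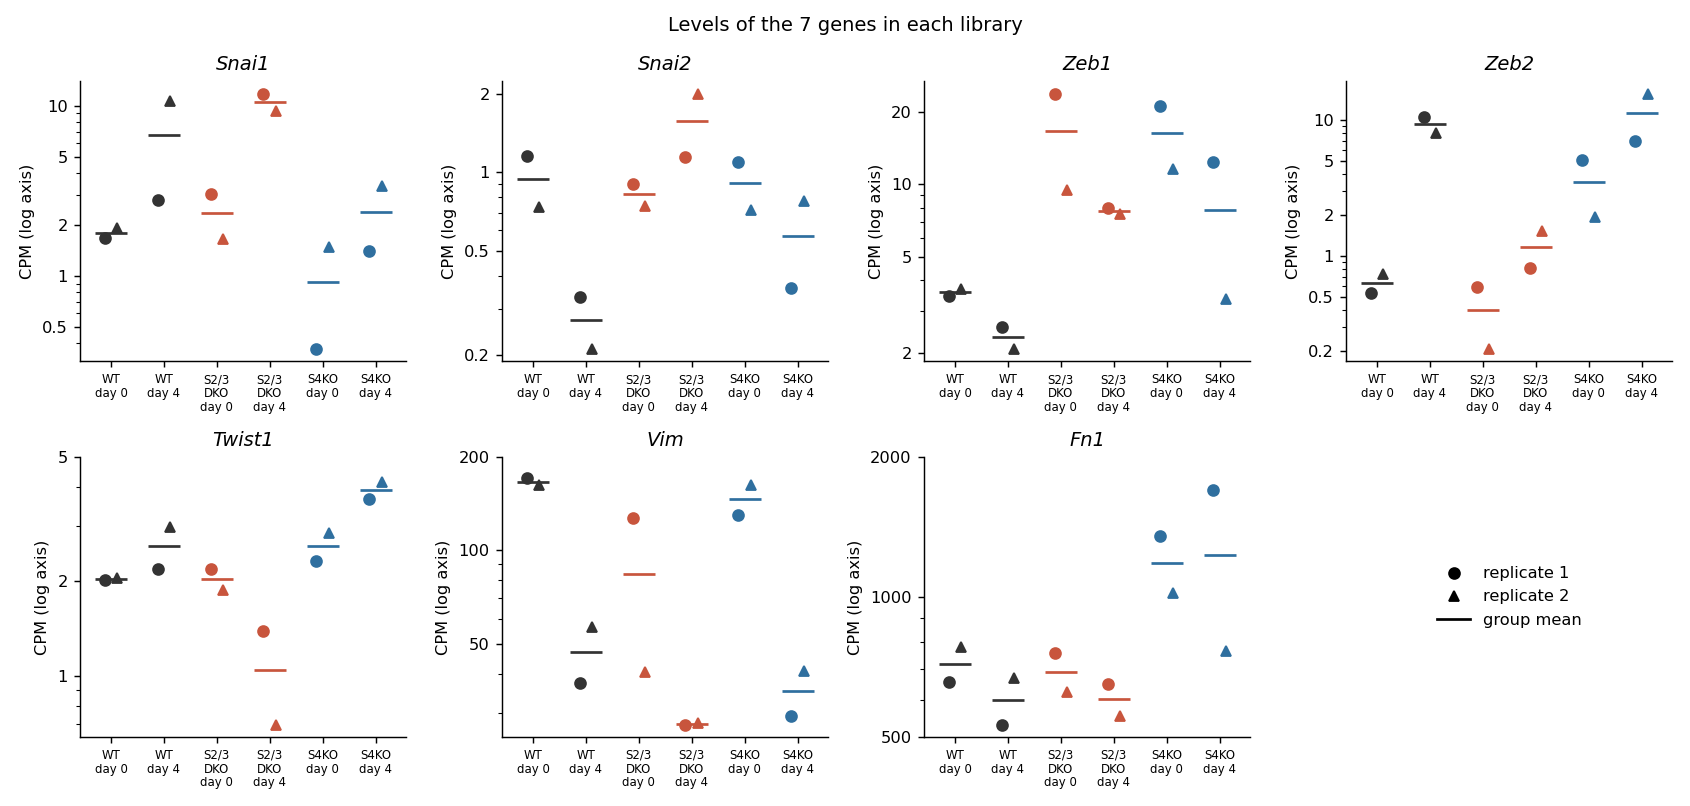
CPM of each of the 7 genes on a log axis, 1 panel per gene, in the 6 groups; circles are replicate 1, triangles replicate 2, horizontal lines group means. Zeb2 is high in WT and S4KO day 4 libraries (6.98 CPM and above) and low in S2/3DKO libraries (1.52 CPM and below); Vim is lower at day 4 than at day 0 in each genotype.

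Differences were tested with the quasi-likelihood test of edgeR across all 18693 genes and called at a Benjamini-Hochberg adjusted p below 0.05. During the 4 days of WT differentiation 4 of the 7 genes changed, Zeb2 and Snai1 upward and Vim and Snai2 downward, where 43.6% of all genes were called (23.8% higher and 19.9% lower). With the length and GC correction all 7 were called in WT, where 42.6% of all genes were, Twist1 being added upward and Zeb1 and Fn1 downward. In S2/3DKO only Vim passed the test (1 of 7; 7.03% of all genes), and in S4KO only Vim as well (1 of 7; 8.9% of all genes). In undifferentiated cells Zeb1 was called higher in S2/3DKO than in WT (1 of 7; 31.0% of all genes), and Zeb1 and Zeb2 were called higher in S4KO than in WT (2 of 7; 19.6%). At day 4, S2/3DKO had more Snai2 and less Zeb2 and Twist1 than WT (3 of 7; 15.2%). Between S4KO and WT at day 4 edgeR called 0 of 7 genes (1.73% of all genes), with 2 at an unadjusted p below 0.05 and 1 called by DESeq2. The 2 knockouts differed in Zeb2 at day 0 (1 of 7; 5.53%) and in Zeb2 and Twist1 at day 4 (2 of 7; 12.3%), higher in S4KO each time. Nothing particular to the 7 genes as a set is read from counts this small. The median log2 fold change of the 7 genes lay between -0.26 and 0.59 in these 9 comparisons, against -0.03 to 0.08 for all genes tested.

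The change over 4 days was also compared between genotypes, as an interaction in the same model. For S2/3DKO against WT edgeR called 0 of 7 genes (6.1% of all genes), with 3 at an unadjusted p below 0.05 and 2 called by DESeq2. For S4KO against WT it called 0 of 7 (0.15% of all genes), with 1 at an unadjusted p below 0.05 and 0 by DESeq2. For S4KO against S2/3DKO it called 0 of 7 (0.00535% of all genes), again with 1 at an unadjusted p below 0.05 and 0 by DESeq2. A gene called in one genotype and not in another is therefore not shown to respond differently. The comparisons share libraries: each WT day 0 library, for example, enters the WT response and both day 0 knockout comparisons.

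**Figure D2:**
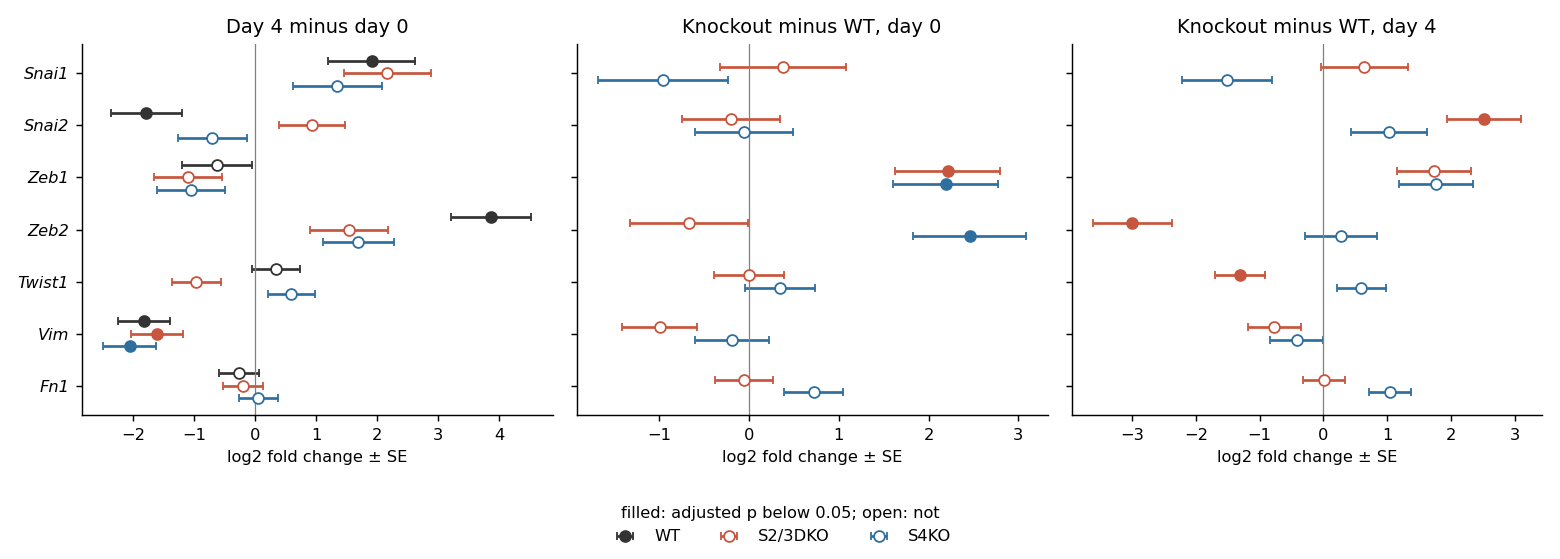
Log2 fold change ± standard error of the 7 genes between days in each genotype (left), and between each knockout and WT at day 0 (middle) and day 4 (right); filled points passed an adjusted p below 0.05. Vim lies left of 0 in all 3 genotypes between days, and Zeb2 separates the knockouts at both days.

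Snai1 (ENSMUSG00000042821, chr2:167538195-167542814 in mm10, plus strand, protein coding) encodes the zinc-finger repressor that embryos need to complete EMT at the primitive streak. WT day 0 libraries had 1.68 and 1.90 CPM and WT day 4 libraries 2.80 and 10.7. S2/3DKO libraries had 3.01 and 1.65 at day 0 and 11.7 and 9.27 at day 4. S4KO libraries had 0.373 and 1.47 at day 0 and 1.40 and 3.36 at day 4. The S2/3DKO day 4 pair was thus high in both libraries, as was 1 of the 2 WT day 4 libraries, while the other WT day 4 library lay inside the range of the day 0 libraries, whose highest value was 3.01. By group mean the order from low to high was S4KO day 0, WT day 0, S2/3DKO day 0, S4KO day 4, WT day 4 and S2/3DKO day 4, and all neighbours overlapped except the lowest pair.

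In WT, Snai1 rose by day 4 with a log2 fold change of 1.91 ± 0.71 (edgeR adjusted p = 0.0479). That call rests on single libraries: leaving out WT day 4 replicate 2 gave an adjusted p of 0.498, and leaving out WT day 0 replicate 1 or 2 gave 0.177 or 0.14. It was also lost without any 1 of the 4 S2/3DKO libraries (0.0534 to 0.0587), which enter the shared estimate of spread. With the length and GC correction the value was 2.98 ± 0.49 and was called (edgeR adjusted p = 0.000938). Snai1 is among the genes of highest GC content, and the WT day 4 libraries differed in their GC trend. That trend was -1.20 in replicate 1 and 0.40 in replicate 2, and its part in the Snai1 split was not tested. In S2/3DKO the difference was 2.17 ± 0.71 with no overlap between days, but its edgeR adjusted p was 0.0873. DESeq2 called that difference (adjusted p = 0.0132), as did the length and GC correction (0.0139) and the test without either WT day 4 library (0.0494 and 0.0497). At day 4 S4KO lay below S2/3DKO by a log2 fold change of -2.16 ± 0.71 (edgeR adjusted p = 0.0722; 0.00914 in DESeq2 and 0.0113 with the length and GC correction), which was called without any 1 of the WT day 4 or S4KO day 0 libraries (0.0343 to 0.0478). Snai1 in S4KO did not pass the test between days (1.35, adjusted p = 0.268), nor did either knockout pass against WT at day 0 or day 4. The length and GC correction called the S4KO rise between days at 1.59 (adjusted p = 0.0475) and a higher level in S2/3DKO than in WT at day 0, at 1.39 (0.0439) against 0.38 (0.713) without it.

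Levels of streak markers did not rank the libraries as Snai1 did. The S2/3DKO day 4 libraries, with 11.7 and 9.27 CPM of Snai1, had 10.2 and 8.10 CPM of streak markers in sum, within the 7.11 to 13.7 CPM of the day 0 libraries. The WT day 4 libraries had 485 and 579 CPM of streak markers beside 2.80 and 10.7 CPM of Snai1. Trophectoderm markers summed to 676 and 702 CPM in the 2 S2/3DKO day 4 libraries and to at most 48.2 CPM in WT day 4. In bulk RNA a larger number of cells of one type and more RNA per cell cannot be told apart, and the part of either cell type in the Snai1 level was not tested.

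**Figure D3:**
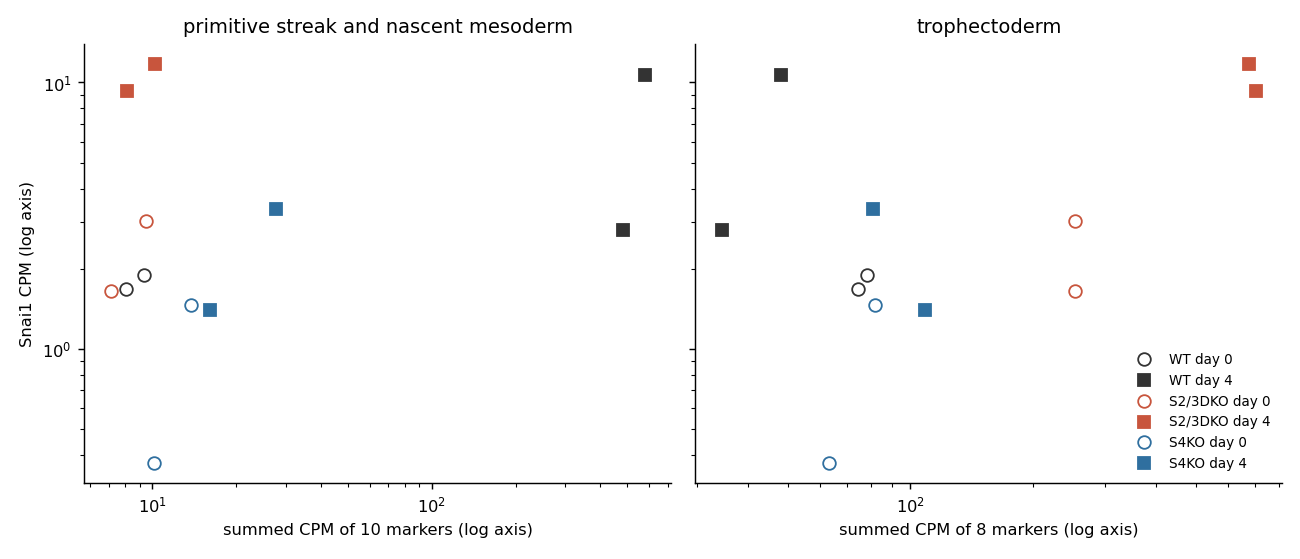
Snai1 CPM against the summed CPM of 10 primitive streak markers (left) and 8 trophectoderm markers (right), 1 point per library, both axes logarithmic; open circles are day 0, filled squares day 4. The S2/3DKO day 4 squares (11.7 and 9.27 CPM of Snai1) sit at the low end of the streak axis and the high end of the trophectoderm axis.

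Snai2 (ENSMUSG00000022676, chr16:14705852-14709385, plus strand, protein coding), or Slug, encodes the family member best known from neural crest. Its highest value, 1.06 FPKM, was the lowest maximum of the 7 genes, and it had 11 to 109 counts per library. Zeb2 had a lower median over the libraries, 0.206 against 0.379 FPKM. WT libraries had 1.15 and 0.735 CPM at day 0 and 0.332 and 0.211 at day 4. In S2/3DKO the levels were 0.899 and 0.744 at day 0 and 1.14 and 2.00 at day 4. S4KO libraries had 1.10 and 0.714 at day 0 and 0.359 and 0.777 at day 4. WT day 4 libraries were the lowest of the 12, S2/3DKO day 4 held the highest value, and the 3 day 0 groups overlapped one another. In the order of means, from WT day 4 through S4KO day 4, S2/3DKO day 0, S4KO day 0 and WT day 0 to S2/3DKO day 4, the lowest pair was the only one without overlap.

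Snai2 fell in WT by day 4, with a log2 fold change of -1.78 ± 0.58 (edgeR adjusted p = 0.0282). Leaving out WT day 0 replicate 1 raised the adjusted p to 0.165, and leaving out day 4 replicate 1 or 2 of WT raised it to 0.0576 or 0.119; it was also lost on log2(FPKM + 1), at 0.101 with a filter and 0.122 without. At day 4 it was higher in S2/3DKO than in WT by 2.52 ± 0.58 (edgeR adjusted p = 0.0148), a call lost without S2/3DKO day 4 replicate 2 (0.129) or WT day 4 replicate 2 (0.068). The S2/3DKO response minus the WT response was 2.71 ± 0.79 with an edgeR adjusted p of 0.0623, and DESeq2 called it at 0.0209. S4KO was below S2/3DKO at day 4 by -1.49 ± 0.56 (edgeR adjusted p = 0.106). The length and GC correction called that difference, at -1.58 (0.0492), but not with the replicate block added (0.0646). Tests with limma on log2(FPKM + 1) also called it, with a filter (0.0333) and without (0.0475), and no other alternative did. The day 0 comparisons, S4KO against WT at day 4 and the changes over time in the knockouts did not pass.

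The paralogues also differed in their balance. By FPKM, Snai1 made up 92.8% and 85.3% of the SNAIL family sum in S2/3DKO day 4 libraries, 91.7% and 98.5% in WT day 4 and 83.0% and 84.4% in S4KO day 4. At day 0 it made up 64.2 to 80.7% in WT and S2/3DKO libraries, and 29.4% and 71.7% in S4KO. Snai1 was the larger part in 11 of the 12 libraries, the exception being S4KO day 0 replicate 1, where it had 18 counts.

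Zeb1 (ENSMUSG00000024238, chr18:5591860-5775467, plus strand, protein coding) encodes a zinc-finger and homeodomain repressor of epithelial genes. WT libraries had 3.45 and 3.70 CPM at day 0 and 2.56 and 2.09 at day 4. The S2/3DKO libraries had 23.7 and 9.50 at day 0 and 7.97 and 7.55 at day 4. S4KO libraries had 21.1 and 11.6 at day 0 and 12.4 and 3.36 at day 4. The 4 WT libraries were among the 5 lowest, all knockout day 0 libraries were above every WT library, and only S4KO day 4 replicate 2 reached into the WT range. The order of means ran from WT day 4 and WT day 0 to S2/3DKO day 4, S4KO day 4, S4KO day 0 and S2/3DKO day 0, and the 4 knockout groups each overlapped the next. Zeb1 overlaps the antisense gene Gm10125 at its 5′ end. That gene had a mean of at most 0.161 CPM in any group, and reads from overlapping strands cannot be told apart because the sources used here do not give the strand setting of the counting.

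In undifferentiated cells Zeb1 was higher than WT by a log2 fold change of 2.21 ± 0.58 in S2/3DKO (edgeR adjusted p = 0.016) and 2.19 ± 0.58 in S4KO (0.0253), values that share the WT libraries. The S2/3DKO call was lost on leaving out its replicate 1 (0.11) or WT day 0 replicate 1 (0.104) or 2 (0.0754). The S4KO call was lost on leaving out its replicate 1 (0.171) or WT day 0 replicate 1 (0.172) or 2 (0.106), and with the length and GC correction (0.0631). With that correction both differences from WT were smaller, at 1.502 in S2/3DKO and 1.549 in S4KO, and the S2/3DKO call was kept (0.0496). At day 4 the differences from WT were 1.74 ± 0.58 in S2/3DKO and 1.76 ± 0.58 in S4KO, with edgeR adjusted p of 0.0646 and 0.173. The S2/3DKO value stayed between 1.62 and 1.95 on leaving out any 1 of its 4 libraries, while the S4KO value was 0.52 without S4KO day 4 replicate 1 (adjusted p = 1.0) and 2.45 without replicate 2 (0.0271). The first was called by DESeq2 (0.0121), with the length and GC correction (0.0268), in 5 other alternatives and without any 1 of the S2/3DKO day 0 or S4KO day 4 libraries (0.0211 to 0.0497), the second by DESeq2 (0.0384). In the test with all libraries no change over time and no difference between the knockouts passed for Zeb1. The length and GC correction called a fall in WT, at -1.60 (0.0335) against -0.62 (0.399) without it, and without S4KO day 4 replicate 1 the S4KO change between days was called, at -2.35 (0.0313) against -1.05 (0.266).

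Zeb2 (ENSMUSG00000026872, chr2:44983632-45117395, minus strand, protein coding), also called Sip1 for SMAD-interacting protein, encodes the paralogue first found as a binding partner of receptor-activated SMADs. WT libraries had 0.527 and 0.735 CPM at day 0 and 10.6 and 8.05 at day 4. In S2/3DKO the values were 0.587 and 0.207 at day 0 and 0.809 and 1.52 at day 4. S4KO libraries had 5.05 and 1.92 at day 0 and 6.98 and 15.6 at day 4. All 4 S2/3DKO libraries lay below all 4 S4KO libraries, and WT moved from the range of S2/3DKO at day 0 to the range of S4KO at day 4. Means rose from S2/3DKO day 0 through WT day 0, S2/3DKO day 4, S4KO day 0 and WT day 4 to S4KO day 4, with overlap only in the lowest pair and in the highest pair. The antisense gene Zeb2os lies across its 5′ part and had 0 to 11 counts per library, against 10 to 573 for Zeb2.

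In WT differentiation Zeb2 rose by day 4 with a log2 fold change of 3.87 ± 0.66 (edgeR adjusted p = 0.00115) and was called in all 16 alternatives. This was the largest fold change of the 7 genes in that test, but under the length and GC correction it was 2.42, below the 2.98 of Snai1. In the knockouts the changes over time were 1.54 ± 0.64 (S2/3DKO, adjusted p = 0.163) and 1.69 ± 0.58 (S4KO, 0.0951), neither called by edgeR. DESeq2 called the S4KO rise (0.0366), as did edgeR without a filter on low counts (0.0341), and on leaving out 1 S4KO library its value ran from 0.98 (without day 4 replicate 2) to 2.55 (without day 0 replicate 1), not called in either case. Relative to the WT response these were -2.33 ± 0.89 for S2/3DKO (edgeR adjusted p = 0.114; 0.0481 in DESeq2) and -2.18 ± 0.84 for S4KO (0.172). At day 4 S2/3DKO was below WT by -3.00 ± 0.62 (edgeR adjusted p = 0.00878), and below S4KO as well, S4KO minus S2/3DKO being 3.28 ± 0.63 (0.00709). Both calls were lost without S2/3DKO day 4 replicate 1 (0.0882 and 0.079) and on log2(FPKM + 1) without a filter (0.0666 and 0.0692). S4KO and WT at day 4 overlapped and did not pass.

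At day 0 Zeb2 was already higher in S4KO than in WT by 2.46 ± 0.63 (edgeR adjusted p = 0.0224) and than in S2/3DKO by 3.12 ± 0.65 (0.0201). The first call was lost without S4KO day 0 replicate 1 (0.189), without WT day 0 replicate 1 (0.174) or replicate 2 (0.0824) and with the length and GC correction (0.08). The second was lost without S4KO day 0 replicate 1 (0.109) or S2/3DKO day 0 replicate 2 (0.156). Both were also lost in tests on log2 FPKM. With the length and GC correction the first difference was 1.45 and the second 3.23. Zeb2 in S2/3DKO day 0 did not pass against WT (-0.66, adjusted p = 0.471), but the length and GC correction called it lower, at -1.78 (0.0381).

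The ZEB family therefore changed composition between days in WT. By FPKM, Zeb1 made up 91.9% and 90.3% of the Zeb1 and Zeb2 sum in WT day 0 libraries and 18.4% and 22.9% in WT day 4. In S2/3DKO it stayed the larger part, at 98.5% and 99.0% on day 0 and 94.4% and 89.9% on day 4. In S4KO it was 79.0% and 90.4% at day 0, and at day 4 the replicates split, with 73.7% in replicate 1 and 17.5% in replicate 2. The FPKM of Zeb2 in those replicates, 0.828 and 3.48, differed more than its CPM, 6.98 and 15.6. The shares therefore depend on the FPKM scale. S4KO day 4 replicate 2 is the shallowest library, and its pluripotency markers summed to 1348 CPM against 2334 in replicate 1. Its sums were higher for early neural and neural crest (246 against 149), streak (27.6 against 16.1) and extraembryonic endoderm markers (531 against 360). They were lower for trophectoderm (80.9 against 109) and blood and endothelium markers (62.3 against 102). The part of depth or of any of these sums in this split was not tested.

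**Figure D4:**
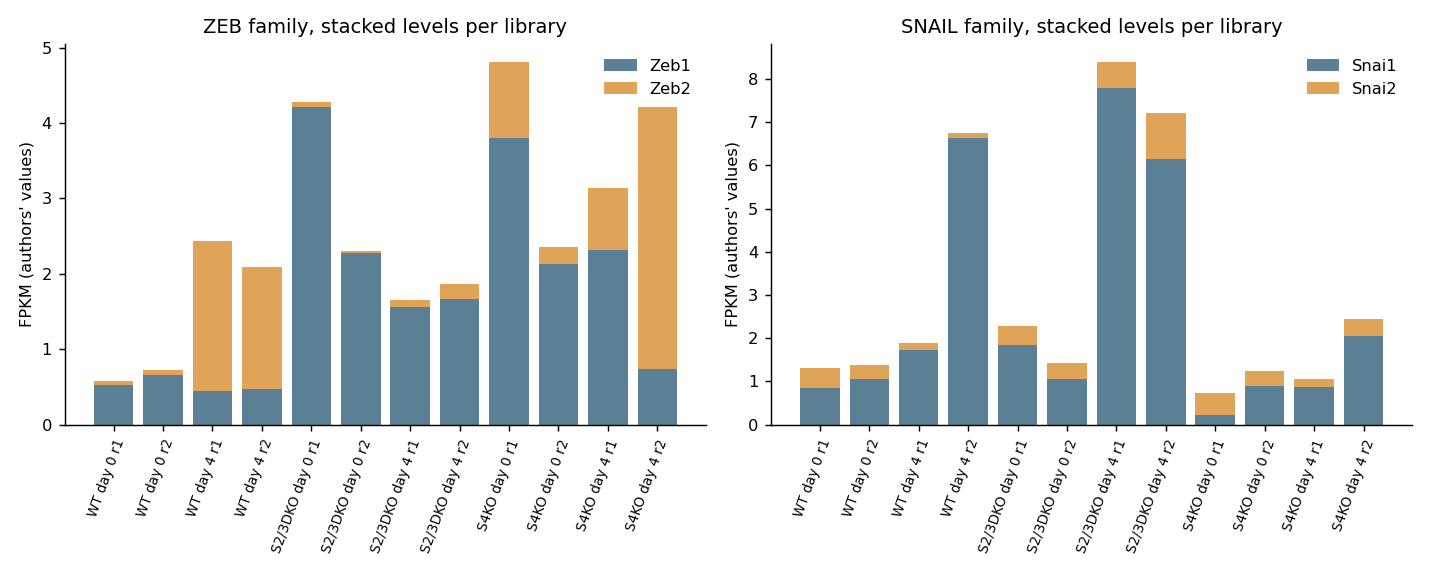
Authors' FPKM of Zeb1 and Zeb2 (left) and of Snai1 and Snai2 (right), stacked, 1 bar per library, with r1 and r2 the replicates. In the left panel the Zeb2 part exceeds the Zeb1 part in both WT day 4 libraries and in S4KO day 4 replicate 2 only.

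Twist1 (ENSMUSG00000035799, chr12:33957671-33959829, plus strand, protein coding) encodes a basic helix-loop-helix factor of mesoderm and cranial mesenchyme. WT libraries had 2.01 and 2.05 CPM at day 0 and 2.19 and 2.99 at day 4. The double knockout had 2.19 and 1.88 at day 0 and 1.39 and 0.696 at day 4. S4KO libraries had 2.32 and 2.85 at day 0 and 3.66 and 4.17 at day 4. Replicates lay close together except in S2/3DKO day 4, the 2 S2/3DKO day 4 libraries were the lowest of the 12 and the 2 S4KO day 4 libraries the highest. The order of means was S2/3DKO day 4, WT day 0, S2/3DKO day 0, S4KO day 0, WT day 4 and S4KO day 4; WT day 0 overlapped S2/3DKO day 0, S4KO day 0 overlapped WT day 4, and the other neighbours did not overlap.

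At day 4 Twist1 was higher in S4KO than in S2/3DKO by a log2 fold change of 1.90 ± 0.40 (edgeR adjusted p = 0.012), which was lost only without S2/3DKO day 4 replicate 2 (0.136) among 16 alternatives. S2/3DKO was below WT by -1.31 ± 0.40 (edgeR adjusted p = 0.0474). This second call was lost without any 1 of its 4 libraries, at 0.0763 and 0.141 without WT day 4 replicate 1 and 2 and at 0.0572 and 0.314 without S2/3DKO day 4 replicate 1 and 2, and in 4 of its 12 other alternatives. It was also lost without any 1 of the WT day 0, S4KO day 0 or S4KO day 4 libraries (0.0515 to 0.0772). The change over time in S2/3DKO was -0.96 ± 0.40 (edgeR adjusted p = 0.161), and it differed from that in WT by -1.31 ± 0.56 (0.149) and from that in S4KO by 1.56 ± 0.56, given as S4KO minus S2/3DKO (0.485). In WT the change did not pass in the main test, but the length and GC correction called a rise of 1.67 (0.00518) where the main value was 0.35. In undifferentiated cells it called S4KO above WT for Twist1, at 1.35 (0.0303) against 0.35 (0.571), and the S2/3DKO response below the WT response, at -2.68 (0.0191).

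Vim (ENSMUSG00000026728, chr2:13573927-13582826, plus strand, protein coding) encodes vimentin, the filament protein of mesenchymal cells. WT libraries had 170 and 162 CPM at day 0 and 37.4 and 56.7 at day 4. In the double knockout they were 127 and 40.6 at day 0 and 27.4 and 27.7 at day 4. S4KO libraries had 129 and 162 at day 0 and 29.3 and 41.0 at day 4. Day 4 libraries were below day 0 libraries of the same genotype in each case, and 5 of the 6 day 0 libraries stood above 120 CPM. The exception, S2/3DKO day 0 replicate 2, had 40.6 CPM, within the day 4 range. Its pluripotency markers summed to 2531 CPM against 3992 in replicate 1 and at least 4196 in the other day 0 groups, and the part of this in its Vim level was not tested.

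Vim fell by day 4 in every genotype, with log2 fold changes of -1.82 ± 0.43 in WT (edgeR adjusted p = 0.00599), -1.60 ± 0.42 in S2/3DKO (0.0457) and -2.05 ± 0.43 in S4KO (0.0157). The WT call was made in all 16 alternatives. The S2/3DKO value shrank to -0.56 without its day 0 replicate 1 (0.319) and was -2.20 without its day 0 replicate 2. That call was also lost without its day 4 replicate 1 (0.186) or its day 4 replicate 2 (0.231), in 5 of its 12 other alternatives, and without any 1 of the WT or S4KO day 0 libraries (0.0536 to 0.0607). The S4KO call was lost without its day 0 replicate 2 (0.0709), its day 4 replicate 1 (0.058) or its day 4 replicate 2 (0.0823), and in 2 of 12 others. Vim was lower in S2/3DKO than in WT at day 0 by -0.99 ± 0.42 without passing (edgeR adjusted p = 0.0921), and that value was -2.03 without S2/3DKO day 0 replicate 1 (0.00465, called) and -0.39 without replicate 2 (0.388). Without that replicate 1 Vim was also called higher in S4KO than in S2/3DKO at day 0, at 1.84 (0.0119) against 0.80 (0.306) with all libraries. The order of means was S2/3DKO, S4KO and WT at day 4, then S2/3DKO, S4KO and WT at day 0; S4KO overlapped WT at each day, and S2/3DKO day 0 overlapped WT day 4.

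Fn1 (ENSMUSG00000026193, chr1:71585520-71653200, minus strand, protein coding) encodes fibronectin, the matrix glycoprotein that integrins bind. WT libraries had 656 and 782 CPM at day 0 and 530 and 669 at day 4. The double knockout libraries had 759 and 624 at day 0 and 651 and 556 at day 4. S4KO libraries had 1352 and 1018 at day 0 and 1700 and 764 at day 4. The WT and S2/3DKO groups overlapped at both days, and 3 of the 4 S4KO libraries were above all 8 others. From low to high the means ran WT day 4, S2/3DKO day 4, S2/3DKO day 0, WT day 0, S4KO day 0 and S4KO day 4, and WT day 0 and S4KO day 0 were the only neighbours without overlap. No comparison of Fn1 passed the test with all libraries. The length and GC correction called a fall in WT differentiation, at -0.90 (0.0268) against -0.26 (0.533) without it. S4KO minus WT was 0.72 ± 0.33 at day 0 (edgeR adjusted p = 0.139) and 1.04 ± 0.33 at day 4 (0.152), and S4KO minus S2/3DKO was 0.78 ± 0.33 (0.197) and 1.03 ± 0.33 (0.0622). With the length and GC correction the day 0 values were 0.38 against WT (edgeR adjusted p = 0.379) and 0.90 against S2/3DKO (0.0648). The day 4 differences depended on the library left out. Without S4KO day 4 replicate 2, with 764 CPM, those from WT and S2/3DKO were 1.55 and 1.49 and were called (0.0151 and 0.0131), and without replicate 1, with 1700 CPM, they were 0.35 and 0.29 (0.999 and 0.614). The second was called with all libraries by DESeq2 (0.0303) and with the length and GC correction (0.0187), and both were called without a filter on low counts (0.0431 and 0.016). The antisense gene Apol7d overlaps its 5′ end and had at most 3.16 FPKM as a group mean, against 80.8 or more for Fn1.

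The 7 genes did not move as a block. Over the 12 libraries Pearson r of log2 CPM between pairs of them ran from -0.65 (Snai2 and Twist1) to 0.55 (Zeb1 and Fn1), and it was -0.05 for Snai1 and Snai2, -0.31 for Zeb1 and Zeb2 and 0.21 for Vim and Fn1. Among genes reaching a mean of 5 CPM in some group, those with the most similar profile were Slc25a10 for Snai1 (r = 0.97 over 12 libraries and 0.99 over 6 group means), Rtn1 for Snai2 (0.90 and 0.98) and Tet2 for Zeb1 (0.97 and 0.98). For Zeb2 they were Naf1 (0.97 and 0.99) and Sox4 (0.97 and 0.98), for Twist1 Epdr1 (0.91 and 0.95), for Vim Eif3c (0.97 and 0.98) and for Fn1 Gpr179 (0.92 and 0.96). These coefficients describe 12 libraries from 6 groups and were picked as the highest among 11736 or 11737 genes.

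Other genes of the pathway were described by lists, with values from the main test and without the length and GC correction. List comparisons with WT day 0 thus carry the trends of those libraries with length and GC content. The lists are to be read against the share of all genes called in each direction. Those shares, higher then lower, were 23.8% and 19.9% for WT between days, 3.57% and 3.46% for S2/3DKO and 5.08% and 3.81% for S4KO. Against WT they were 16.7% and 14.4% for S2/3DKO and 10.5% and 9.14% for S4KO at day 0, and 7.21% and 8.0% for S2/3DKO and 0.679% and 1.05% for S4KO at day 4. For S4KO against S2/3DKO at day 4 they were 5.84% and 6.45%. Of 11 further EMT factor genes, 4 rose and 0 fell in WT differentiation. They were Gsc, the organizer homeobox gene (9.78 ± 9.63 CPM at day 4 against 1.07 ± 0.051, SD, n = 2), the chromatin gene Hmga2 (log2 fold change 2.82 ± 0.38), Sox4 (2.01 ± 0.36) and the E-protein gene Tcf4 (1.11 ± 0.30). In EBs S2/3DKO was lower than WT in 3 of the 11 and higher in 0: Gsc by -5.80 ± 0.81, Sox4 by -2.06 ± 0.36 and Hmga2 by -1.29 ± 0.36. S4KO was lower than WT in 1, Gsc (-5.25 ± 0.80), and higher than S2/3DKO in 1, Sox4 (1.87 ± 0.35), the gene that also tracked Zeb2. Gsc is also among the 10 streak markers. Of 17 genes for cofactors of SNAIL and ZEB proteins 5 rose and 0 fell in WT, among them Rcor1, a subunit of the LSD1 complex (1.95 ± 0.22). Undifferentiated S2/3DKO cells were higher than WT in 5 of the 17 and S4KO cells in 2, Rcor1 in each (1.97 ± 0.22 and 1.73 ± 0.22). S2/3DKO had the Hippo kinase gene Lats2 at 21.1 ± 9.09 CPM, WT at 2.66 ± 0.273 (log2 fold change 2.99 ± 0.67).

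Of 34 mesenchymal genes tested, 12 rose and 4 fell in WT differentiation, with a median log2 fold change of 0.65 against 0.08 for all genes. Pdgfra, a growth factor receptor gene of mesoderm and primitive endoderm, rose by 6.28 ± 0.46, the cadherin gene Cdh11 by 5.19 ± 0.55 and the N-cadherin gene Cdh2 by 4.27 ± 0.58, while the proteoglycan gene Bgn fell by 2.28 on the log2 scale. In S2/3DKO 7 rose and 0 fell, led by the collagen gene Col6a1 (4.29 ± 0.50), and in S4KO 7 rose and 0 fell, led by the calponin gene Cnn1 (3.91 ± 0.66). At day 4 S2/3DKO was higher than WT in 4 of the 34 and lower in 5: Postn, the periostin gene (6.87 ± 1.41), and Bgn (3.72 ± 0.53) were higher and Cdh11 (-5.25 ± 0.55) and Cdh2 (-3.98 ± 0.57) lower. S4KO was higher than WT in 0 and lower in 2, Cdh11 (-3.27 ± 0.49) and Pdgfra (-2.89 ± 0.38). The median over the list was 0.23 for S2/3DKO and -0.35 for S4KO, against -0.03 for all genes in each.

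Of 30 epithelial genes 11 rose and 2 fell in WT differentiation, 9 rose and 0 fell in S2/3DKO, and 9 rose and 0 fell in S4KO. Risers in WT included the desmoplakin gene Dsp (2.22 ± 0.20) and the tight junction scaffold gene Tjp1 (2.21 ± 0.32), and the claudin gene Cldn4 fell by 1.86 on the log2 scale. In the knockouts the epithelial splicing factor gene Esrp1 rose by 1.69 ± 0.23 (S2/3DKO) and 2.50 ± 0.24 (S4KO). At day 4 S2/3DKO was higher than WT in 10 of the 30 and lower in 1, led by the keratin genes Krt19 (3.73 ± 0.71) and Krt8 (3.18 ± 0.83), and S4KO was called against WT in 0 of the 30. At day 0 S4KO was lower than WT in 8 of the 30 and higher in 4, led by the claudin gene Cldn3 (-3.54 ± 0.85).

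Of 19 genes for fibronectin receptors and their adhesion partners, 9 rose and 0 fell in WT differentiation, including the integrin gene Itga8 (3.20 ± 0.67) and the vinculin gene Vcl (2.76 ± 0.47). Undifferentiated S2/3DKO cells were higher than WT in 12 and lower in 0, led by the integrin gene Itgb3 (3.13 ± 0.36). S4KO cells were higher in 8, led by Vcl (2.45 ± 0.47), and lower in 1. At day 4 S2/3DKO was higher than WT in 6 and lower in 1 (Itgb3, 4.44 ± 0.38, and the tensin gene Tns1, 2.81 ± 0.32, led), and S4KO was called in 0. Beside Vim, a list of 17 genes, for other intermediate filaments and for plectin (Plec), gave 3 risers and 3 fallers in WT differentiation. Lmna, for lamin A, fell by 2.75 on the log2 scale, and Nes, for nestin of neural progenitors, rose by 2.31 ± 0.41. In EBs S2/3DKO was higher than WT in 5 of the 17 and lower in 3, Krt7 (4.76 ± 0.76) being the highest and Nes lower by -2.61 ± 0.42. The keratin genes Krt8, Krt18 and Krt19 are in both the epithelial and the filament list, and Krt7 is also among the trophectoderm markers.

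**Figure D5:**
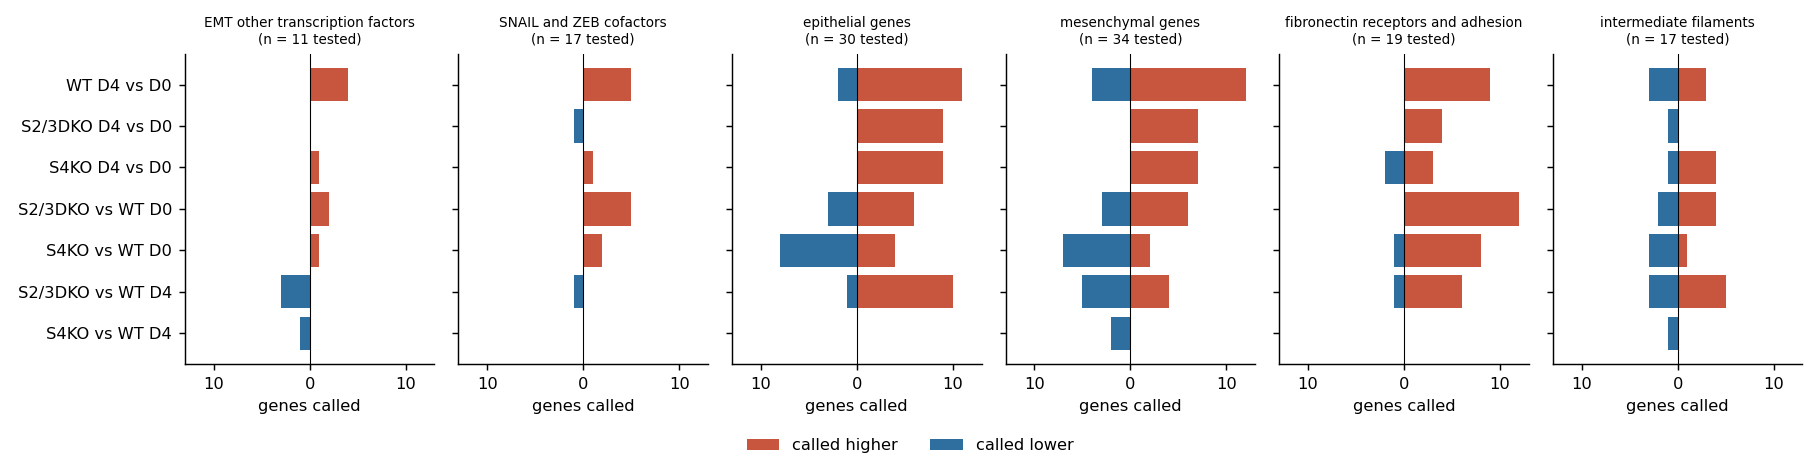
Number of genes called higher (right of 0) and lower (left of 0) at an edgeR adjusted p below 0.05 in each of 6 gene lists, 1 panel per list, for 7 comparisons. In WT differentiation (top row) 11 epithelial and 12 mesenchymal genes were called higher, and in S4KO against WT at day 4 (bottom row) at most 2 genes of any list were called.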

How the data were processed

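The authors deposited 1 table of read counts per Ensembl gene (32285 genes) and 1 table of FPKM (32245 rows) for the same 12 libraries. Total RNA was the input of an Illumina TruSeq v2 library kit, per the labels' protocols. The build mm10 and the tools StringTie, Cufflinks and DESeq2 come from the submitters' processing notes, without versions or roles, and the aligner, annotation and strand setting are not given in the sources used here. Counts as deposited were scaled by TMM, filtered with filterByExpr and tested with edgeR 4.0.16 (quasi-likelihood, 1 model over 6 groups, R 4.3.3), Benjamini-Hochberg adjusted over 18693 genes. Standard errors are the log2 fold change over the root of F. Scaled CPM are shown per library. Alternatives used DESeq2 1.42.0, RLE scaling, other filters, limma 3.58.1 on the deposited FPKM as log2(FPKM + 1) or log2(FPKM + 0.1), length and GC offsets, a replicate block, the groups of a comparison alone, a log2 fold minimum of 1 and each library left out. The scripts were tested on simulated counts. Gene positions are from GENCODE M21 (GRCm38). The 7 genes, the gene lists and the marker lists were chosen with earlier results of these data known. Of each list the text names up to 4 genes, those with the largest fold change among genes called, not overlapping between groups and at 5 CPM or more in the higher group. Counts total 31566376 to 55806858 per library, and Snai2 rests on as few as 11.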

Additional observations from a re-analysis of the deposited data

How the results depend on the processing

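Of 84 gene-by-comparison values, 15 were called, and over their 240 alternative values none changed sign, 180 stayed called and 60 were no longer called. The rises of Zeb2 and falls of Vim in WT were called in every alternative; no other call was. These alternatives leave out libraries of the compared groups; all 12 libraries were left out in turn, and without a library of another group, which enters only the shared scaling, filter and spread, 14 of 120 values of the 15 calls were lost (Snai1 in WT and Vim in S2/3DKO between days, Twist1 in S2/3DKO against WT at day 4), with adjusted p from 0.0515 to 0.0772, and none changed sign. Of the 18 values not called with an unadjusted p below 0.05, none changed sign in 308 alternatives and 46 alternatives called them, as did 10 of 124 fits without a library of another group (Snai1 in S2/3DKO between days, Zeb1 in S2/3DKO against WT and Snai1 in S4KO against S2/3DKO, both at day 4). The 51 other values changed sign in 103 of 880 alternatives and were called in 16, none of them with a changed sign; of those with such a call, Fn1 in WT between days changed sign on FPKM (0.0377 with a pseudocount of 1, filtered or not, and 0.0382 with 0.1) and Snai1 in S2/3DKO against WT at day 0 on leaving out 1 library (-0.12 to 0.75). Replicate numbers are shared across groups in the labels. Correlations of replicate differences between groups ran from -0.107 to 0.248, the highest for WT day 4 with S4KO day 0. Whether same-numbered libraries share a batch was not tested. With the replicate number as a block the count of the 7 genes called fell from 1 to 0 in S2/3DKO between days. It kept within 1.5 times of the main count elsewhere. Under the block Snai1 in WT between days (adjusted p = 0.0539), Vim in S2/3DKO between days (0.0578) and Twist1 in S2/3DKO against WT at day 4 (0.0605) were not called, and Zeb1 in S2/3DKO against WT (0.0275) and Snai1 in S4KO against S2/3DKO (0.0462), both at day 4, were.

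The number of the 7 genes called moved as follows. In WT between days it was 4, with 2 to 4 on leaving out 1 library, 2 on log2(FPKM + 1) without a filter and 7 with the length and GC correction, with or without the block. In S2/3DKO between days it was 1, with 0 to 2 on leaving out 1 library, 2 with DESeq2, without a filter and with the length and GC correction, with or without the block, and 0 on log2(FPKM + 0.1) and on log2(FPKM + 1) without a filter. In S4KO between days it was 1, with 0 to 1 on leaving out 1 library, 2 with DESeq2, without a filter and with the length and GC correction, 3 with that correction and the block, and 0 on FPKM without a filter and with only its own groups fitted. For S2/3DKO against WT at day 0 it was 1, with 0 to 1 on leaving out 1 library, 2 without a filter, 3 with the length and GC correction and 2 with that and the block. For S4KO against WT at day 0 it was 2, with 0 to 2 on leaving out 1 library, 1 on filtered FPKM with either pseudocount, 1 with the length and GC correction (Twist1, with Zeb1 and Zeb2 lost), and 0 on FPKM without a filter. For S2/3DKO against WT at day 4 it was 3, with 1 to 4 on leaving out 1 library and 1 on FPKM without a filter. For S4KO against WT at day 4 it was 0, with 0 to 2 on leaving out 1 library, 1 with DESeq2 and 2 without a filter. For S4KO against S2/3DKO it was 1 at day 0, with 0 to 2 on leaving out 1 library and 0 on FPKM and with only its own groups fitted, and 2 at day 4, with 1 to 3 on leaving out 1 library, 4 with DESeq2, without a filter, on log2(FPKM + 1) and with the correction and the block, and 5 with the correction alone. For the S2/3DKO response against the WT response it was 0, with 0 on leaving out 1 library, 2 with DESeq2, without a filter and with the length and GC correction, and 1 with the correction and the block and with only its own groups fitted. The cause of these shifts was not tested.

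Counts over all genes moved more: leaving out 1 library gave 4238 to 8079 calls in WT between days (8157 with all), 35 to 1192 in S2/3DKO (1315), 224 to 1841 in S4KO (1663), 1006 to 5131 for S2/3DKO against WT at day 0 (5799), 42 to 3609 for S4KO against WT at day 0 (3663), 881 to 3028 for S2/3DKO against WT at day 4 (2842), 78 to 587 for S4KO against WT at day 4 (323), 315 to 1618 for S4KO against S2/3DKO at day 0 (1034) and 625 to 1375 at day 4 (2298). DESeq2 called 8981, 2736, 2889, 6856, 5023, 3885, 1045, 2126 and 3355 genes in the same comparisons. Of the response differences, 1140, 28 and 1 genes were called and 3297, 1574 and 248 by DESeq2. Those counts over all genes leave out libraries of the compared groups. With no scaling the median log2 fold change of all genes in WT between days would be 0.302, against 0.083 with TMM and 0.039 with RLE. Counts of 10 to 109 per library limit Snai2 throughout and Zeb2 in S2/3DKO and WT day 0.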
